A study of Mus musculus with 4 samples.

Results

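ATP-binding cassette (ABC) transporters use the energy of ATP to move drugs, dyes, lipids or metabolites across membranes. The 9 genes described here were chosen by name: the drug and dye efflux pumps Abcg2, Abcb1a, Abcb1b, Abcc1 and Abcc4, the lipid transporters Abca1, Abcg1 and Abca7, and the mitochondrial transporter Abcb10. The array annotation gave them 17 of the 45037 probe sets that are not controls, and all 17 are accounted for below. Of these, 11 probe sets of 8 genes had a mean log2 intensity over the 4 arrays above the median of all probe sets (7.23) and entered the tests. The other 6 probe sets, which include both of Abcb1a, lay below it.

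RNA came from 4 sorted samples of mouse bone marrow, 1 array each. The groups were Smo-deficient LSK cells, WT LSK cells, Smo-deficient MP cells and WT MP cells. LSK cells are lineage-negative, c-Kit+ and Sca-1+ and hold the stem cells and multipotent progenitors, and MP cells are lineage-negative, c-Kit+ and Sca-1- myeloid progenitors. Mice of both genotypes were Smo flox/flox, that is, homozygous for a floxed allele of the hedgehog signal transducer gene Smo. Those called Smo-deficient were Mx1Cre+ and those called WT were Mx1Cre-, so the WT mice carried the floxed alleles too. The Mx1 promoter responds to interferon and is not restricted to blood cells. All mice received polyI:C, an interferon inducer, into the peritoneum at 20 ug per g, 3 times on alternate days, and marrow was collected after 6 weeks. For each genotype the cells of 4 mice of both sexes were pooled and then sorted, so each genotype is 1 pool and its LSK and MP cells come from the same mice. No source used here gives the age of the mice. The strain is labelled C57BL/6x130 for Smo-deficient LSK, C57BL/6x129 for WT LSK, C57BL/6x132 for Smo-deficient MP and C57BL/6x131 for WT MP. These numbers differ even between populations sorted from the same pool and run on by 1 from sample to sample, so whether they name different strains is doubtful.

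As background, blood stem cells are known for strong dye efflux. ABCG2 pumps out the DNA dye Hoechst and so gives the dye-dim "side population", and the P-glycoproteins encoded by Abcb1a and Abcb1b pump out rhodamine dyes. ABCA1 and ABCG1 pass cellular cholesterol to apolipoprotein A-I and high-density lipoprotein, their genes are classical targets of the sterol-sensing LXR receptors, and mice that lack both have expanded blood stem and progenitor cells. ABCB10 sits in the inner mitochondrial membrane and is needed for heme synthesis in red cell precursors.

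The RefSeq promoter table (GRCm38.p6) held 10 windows for 7 of the 9 genes, each running from 250 bases before to 50 bases after a start site. Of these windows 3 are shown: that of Abca1, since the LXR response of this gene is known to act there, and those of the neighbouring genes Abcb1b and Abcb1a, which both encode P-glycoproteins. Capitals mark the GC box GGGCGG, the CCAAT box CCAAT, the E-box CACGTG, the TATA box TATAAA and an LXR-type direct repeat, GGTTA and GGTCA with any 5 bases between them, all searched on both strands. The repeat was written down with the Abca1 element known, so its match there is no discovery.
Abca1, chr4:53159846-53160145, minus strand: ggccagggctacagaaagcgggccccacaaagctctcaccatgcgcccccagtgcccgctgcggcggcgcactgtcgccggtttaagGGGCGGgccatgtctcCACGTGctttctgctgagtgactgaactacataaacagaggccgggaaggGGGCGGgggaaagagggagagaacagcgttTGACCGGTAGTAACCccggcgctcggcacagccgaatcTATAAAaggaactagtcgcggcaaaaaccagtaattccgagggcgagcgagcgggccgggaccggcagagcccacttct
Abcb1b, chr5:8797897-8798196, plus strand: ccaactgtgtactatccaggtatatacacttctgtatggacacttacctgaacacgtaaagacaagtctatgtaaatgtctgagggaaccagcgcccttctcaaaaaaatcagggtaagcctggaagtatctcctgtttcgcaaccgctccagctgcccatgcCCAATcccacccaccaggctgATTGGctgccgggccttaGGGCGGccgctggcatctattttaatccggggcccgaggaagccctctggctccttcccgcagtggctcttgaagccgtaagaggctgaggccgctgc
Abcb1a, chr5:8566841-8567140, plus strand: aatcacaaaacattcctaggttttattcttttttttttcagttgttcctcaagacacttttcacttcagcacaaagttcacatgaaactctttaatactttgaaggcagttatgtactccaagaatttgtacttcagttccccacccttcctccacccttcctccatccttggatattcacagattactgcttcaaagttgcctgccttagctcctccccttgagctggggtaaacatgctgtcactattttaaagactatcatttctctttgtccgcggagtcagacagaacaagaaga
In the Abca1 window the repeat matched on the opposite strand at bases -67 to -53 from the start site (counted from 0 at the start base). An E-box lay at -147 to -142, a TATA box at -29 to -24 and GC boxes at -163 to -158 and -97 to -92. The Abcb1b window held a CCAAT box on each strand and 1 GC box, and none of these motifs was found in the Abcb1a window. No 2 of the marked matches overlapped. Of all 32851 windows, 0.0487% held the repeat, 7.15% the E-box, 13.6% the TATA box, 35.7% the GC box and 37.4% the CCAAT box. A match describes the letters of the window, not a working site.

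The arrays had close medians, with intensities between 149.1 and 150.3. Their upper quartiles were higher on both LSK arrays, at 609.7 in Smo-deficient LSK and 591.5 in WT LSK, against 543.1 in Smo-deficient MP and 563.9 in WT MP. For the 5' and 3' control probe sets of Actb, which reflect RNA integrity, the 3' signal exceeded the 5' one by a log2 difference that ranged from 1.31 to 1.55 and was higher on both LSK arrays, and that of Gapdh ranged from 1.57 to 1.78 with the highest value in Smo-deficient LSK. On its brightest probe set, 1427048_at, Smo was at 6.96 (log2) in Smo-deficient LSK against 10.02 in WT LSK, and 7.94 in Smo-deficient MP against 9.72 in WT MP. On 1427049_s_at the loss was larger, with differences of -4.68 in LSK and -4.05 in MP. No source used here says whether these probe sets read the deleted part. Of the stem cell markers, 8 of 9 past the filter rose in LSK, among them Cd34 (log2 difference 1.06), and Kit, shared by both gates, differed by 0.22 without passing. The Y-linked gene Eif2s3y was higher in the Smo-deficient pool by 1.70 in LSK and 1.14 in MP, so sex makeup and genotype of the pools cannot be told apart.

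**Figure D1:**
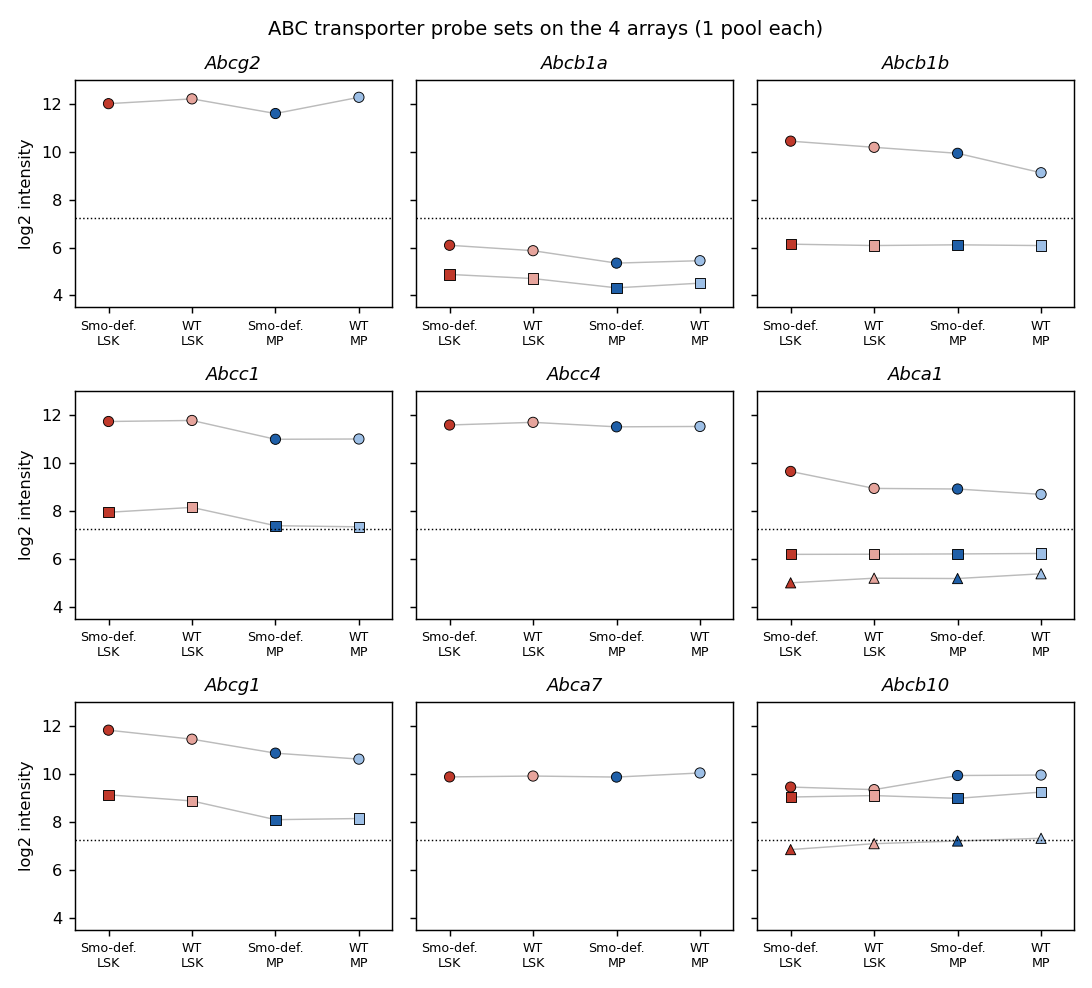
Log2 intensity of all 17 probe sets of the 9 transporter genes on the 4 arrays, Smo-deficient left of WT in each population. Each point is 1 array of 1 pool, circles, squares and triangles are the brightest, second and last probe set of a gene, lines join the points of a probe set, and the dotted line is the filter at 7.23. Abcg1 and Abcc1 stand higher on both LSK arrays than on both MP arrays, and both Abcb1a probe sets lie below the dotted line.

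The first comparison, LSK minus MP, asks which transporters mark the fraction that holds the stem cells. Abcg1, Abcc1 and Abcb1b rose in LSK by 1.86-fold, 1.69-fold and 1.72-fold, and Abcb10 fell in LSK by 1.46-fold on its brightest probe set. Abcg2, Abcc4, Abca7 and Abca1 did not pass. In all 5 of 11 probe sets rose (45.5%) and 1 fell (9.09%), where 15.1% of all 22518 probe sets past the filter rose and 7.19% fell. The test was limma with the pool as a block and Benjamini-Hochberg adjustment over all 22518 probe sets, an adjusted p under 0.05 counting as passing. The Abcg1 and Abcc1 probe sets are pairs that read the same gene, so they are not separate findings. With 2 pools of unlike genotype, the p-values measure how far LSK minus MP differed between those pools, not the spread between mice. In sorted bulk samples, fewer cells of a type and less RNA per cell cannot be told apart.

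Among the efflux pumps, Abcg2, the dye pump of the side population, was as bright in myeloid progenitors as in the stem cell fraction of the WT pool. Its log2 intensity was 12.00 in Smo-deficient LSK, 12.20 in WT LSK, 11.59 in Smo-deficient MP and 12.27 in WT MP. The LSK and MP values overlapped, and the lowest of the 4 was Smo-deficient MP. LSK minus MP was 0.41 in the Smo-deficient pool and -0.07 in the WT pool, with a mean of 0.17 ± 0.12 (limma SE) and an adjusted p of 0.361. The 95% interval of that difference ran from -0.12 to 0.47, and differences within it are not excluded. RefSeq gives Abcg2 3 start-site windows on chromosome 6, and which of these transcripts its 1 probe set, 1422906_at, reads was not examined.

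Of the P-glycoprotein pair only Abcb1b had a probe set past the filter. Abcb1b (1418872_at) had log2 intensities of 10.44 in Smo-deficient LSK, 10.18 in WT LSK, 9.93 in Smo-deficient MP and 9.12 in WT MP. Both LSK values were above both MP values, with WT MP lowest by far. LSK minus MP was 0.51 in the Smo-deficient pool and 1.06 in the WT pool, and the mean of 0.78 ± 0.15 passed with limma at an adjusted p of 0.0144, or 0.173 without the pool block. Its other probe set, 1446701_at, was dim throughout, at 6.08 to 6.14. Abcb1a, the gene next to it on chromosome 5, was below the filter on both probe sets. Its brighter one, 1419759_at, had 6.09 in Smo-deficient LSK, 5.87 in WT LSK, 5.35 in Smo-deficient MP and 5.45 in WT MP. The other, 1419758_at, had 4.88, 4.71, 4.32 and 4.51 in the same groups. On both probe sets the LSK values were above the MP values, but neither was tested, and how much of such dim signal is background is not known. The pair is alike in sequence, and whether either gene's probes also read the other was not tested.

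The multidrug resistance proteins parted from each other. Abcc1, which exports glutathione conjugates and leukotriene C4, had log2 intensities on 1452233_at of 11.72 in Smo-deficient LSK, 11.77 in WT LSK, 10.98 in Smo-deficient MP and 10.99 in WT MP. The populations did not overlap, and within each population the genotypes nearly coincided. LSK minus MP was 0.74 in the Smo-deficient pool and 0.77 in the WT pool, a mean of 0.76 ± 0.09 with a limma adjusted p of 0.00285. Its dimmer probe set, 1421378_s_at, had 7.93 in Smo-deficient LSK, 8.14 in WT LSK, 7.38 in Smo-deficient MP and 7.33 in WT MP, and rose by 0.68 ± 0.12 (adjusted p 0.00902, limma). Both probe sets thus separated the populations. Abcc4, which exports cyclic nucleotides and prostaglandins, had 11.58 in Smo-deficient LSK, 11.69 in WT LSK, 11.50 in Smo-deficient MP and 11.52 in WT MP. These 4 values spanned 0.19, and the mean difference of 0.12 ± 0.09 did not pass (limma adjusted p 0.38, 95% interval -0.10 to 0.35).

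Of the lipid transporters, Abcg1 had the largest LSK minus MP difference of the 8 genes past the filter by the mean of both pools, while in the WT pool alone that of Abcb1b was larger. On 1423570_at it had log2 intensities of 11.82 in Smo-deficient LSK, 11.45 in WT LSK, 10.87 in Smo-deficient MP and 10.62 in WT MP. Both LSK arrays were above both MP arrays, and within each population the Smo-deficient one was the higher. LSK minus MP was 0.96 in the Smo-deficient pool and 0.83 in the WT pool, a mean of 0.89 ± 0.10 with a limma adjusted p of 0.00194. Without the pool block the call was lost (adjusted p 0.0556, limma). The dimmer probe set 1455221_at had 9.13 in Smo-deficient LSK, 8.87 in WT LSK, 8.09 in Smo-deficient MP and 8.14 in WT MP, and rose by 0.89 ± 0.12 (adjusted p 0.00423, limma). Here too the populations did not overlap, but in MP the WT array was the higher by a little.

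Abca1, which loads cholesterol and phospholipid onto lipid-poor apolipoprotein A-I, had 3 probe sets that disagreed. On 1421840_at the log2 intensity was 9.64 in Smo-deficient LSK, 8.93 in WT LSK, 8.91 in Smo-deficient MP and 8.68 in WT MP. Smo-deficient LSK stood above the other 3 arrays, and WT LSK and Smo-deficient MP nearly coincided. LSK minus MP was 0.73 in the Smo-deficient pool and 0.25 in the WT pool, and the mean of 0.49 ± 0.15 did not pass, with a limma adjusted p of 0.0551 (0.0441 to 0.297 over the alternatives, the lowest after cyclic loess). The dim probe sets 1421839_at, at 6.18 to 6.22, and 1450392_at, at 4.99 to 5.37, did not show it. Abca7, an ABCA1 relative with a part in phagocytosis in mice, had 9.87 in Smo-deficient LSK, 9.91 in WT LSK, 9.87 in Smo-deficient MP and 10.04 in WT MP. Its mean difference was -0.06 ± 0.11 (limma adjusted p 0.737, 95% interval -0.33 to 0.21).

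Abcb10 was the member that fell in LSK, though its probe sets were not alike. On 1416402_at it had 9.45 in Smo-deficient LSK, 9.34 in WT LSK, 9.93 in Smo-deficient MP and 9.95 in WT MP. Both MP values were above both LSK values, and LSK minus MP was -0.48 in the Smo-deficient pool and -0.61 in the WT pool, a mean of -0.55 ± 0.11 with a limma adjusted p of 0.0177. On 1416403_at the values were 9.04 in Smo-deficient LSK, 9.10 in WT LSK, 8.98 in Smo-deficient MP and 9.24 in WT MP, and the mean difference of -0.04 ± 0.12 did not pass (adjusted p 0.815, limma). The dim probe set 1454265_a_at, not tested, differed by -0.29, and the mean over the 3 probe sets, -0.29, did not pass (limma adjusted p 0.0515; over the alternatives of the brightest probe set 0.00657 to 0.0805). The summed intensity of the 6 measured mature erythroid markers was 16228 in Smo-deficient LSK, 15034 in WT LSK, 25573 in Smo-deficient MP and 32569 in WT MP. Of the 5 past the filter 2 fell in LSK, Klf1 by 1.69 and Tfrc by 1.30 on the log2 scale, and 3 did not pass, with Epb42 at -0.40, Slc4a1 at 0.14 and Alas2 at 0.16. The part of erythroid cells in the Abcb10 difference was not tested.

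**Figure D2:**
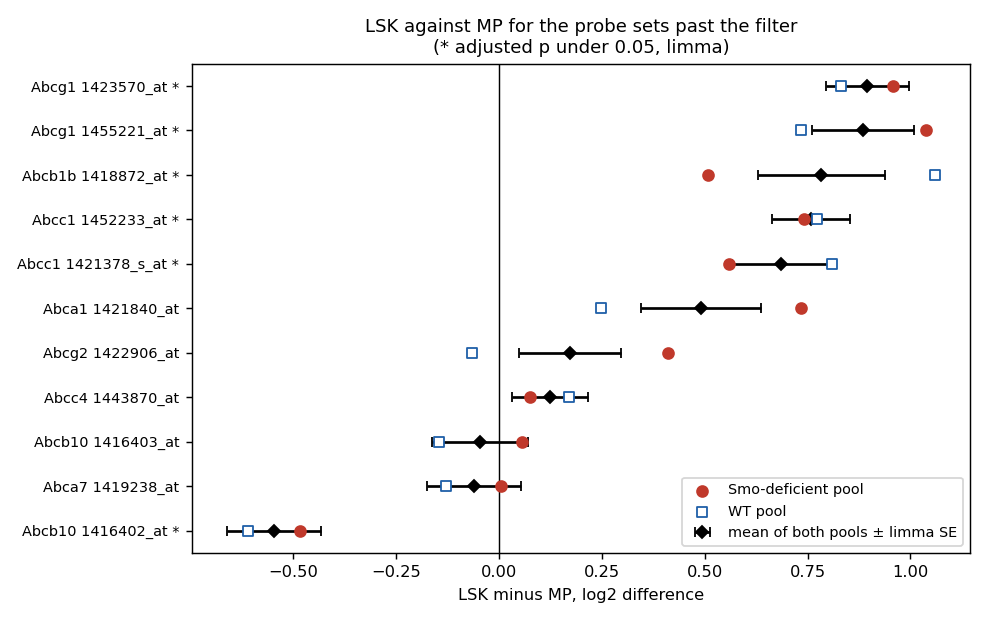
LSK minus MP, as log2 difference, for the 11 probe sets past the filter. Red circles are the Smo-deficient pool, open blue squares the WT pool, black diamonds their mean with the limma standard error as bars, and stars mark an adjusted p under 0.05. Abcc1 has almost the same difference in both pools, while for Abcb1b, Abca1 and Abcg2 the pools lie apart.

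The genotypes were compared within LSK and within MP, to see what loss of Smo changed in the stem cell fraction and in myeloid progenitors. Each genotype is a single pool, so no p-value was computed and nothing checks these differences. No member was 2-fold different. In LSK these were 0 of 11 probe sets, where 0.822% of all probe sets past the filter were (0.595% higher and 0.226% lower). In MP they were also 0 of 11, where 0.639% of all were (0.28% higher and 0.36% lower). At 1.5-fold, 1 of 11 member probe sets was higher in LSK (9.09%, against 3.06% of all) and 0 of 11 were lower (0.884% of all), and 3.94% of all passed in either direction. In MP 1 of 11 was higher (against 2.35% of all) and 1 of 11 lower (2.63% of all), together 18.2% against 4.99%. These were Abca1 in LSK, and Abcb1b and Abcg2 in MP.

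In LSK, Abca1 on 1421840_at was higher in the Smo-deficient pool by 0.71 on the log2 scale, or 1.63-fold. That is 3.13 times the scatter of genotype differences among probe sets of like level (a scaled median absolute deviation of 0.23, taken within these arrays, so no measure of replicate error). Its dim probe sets differed by -0.01 and -0.19. Abcg1 was higher by 0.38 and 0.26 on its pair of probe sets, and Abcb1b by 0.26. Abcg2 was lower by 1.15-fold (-0.20), Abcc4 differed by -0.11, and Abcc1, Abca7 and Abcb10 differed by -0.04, -0.04 and 0.11 on their brightest probe sets. Macrophages are rich in ABCA1 and ABCG1. In LSK minus MP, 0 of 8 macrophage markers past the filter rose and 1 fell (12.5%), with a median of -0.06. Of all genes past the filter 16.4% rose and 7.54% fell. Between genotypes, 7 of the 8 were higher in Smo-deficient LSK, with a median of 0.63. The summed intensity of all 10 was 3767 in Smo-deficient LSK against 2545 in WT LSK. Mertk and Marco were below the filter. Neutrophil markers were also higher there, 8 of 8, with a median of 0.77 and sums of 117684 against 74292, and B cell markers were higher in 8 of 8 with sums of 3676 against 2431. Of 9 stem cell markers past the filter 6 were higher and 3 lower, with a median of 0.08 and sums of 37099 against 30572. Among them 1 was at least 2-fold higher, Procr at 1.11. The median genotype difference in LSK over all genes past the filter was -0.02, and 5575 of these 11904 genes were higher. The part of such cells in the Abca1 and Abcg1 differences was not tested.

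In MP, Abcb1b and Abcg2, both drug pumps, parted in opposite directions. Abcb1b was higher in the Smo-deficient pool by 0.81, or 1.75-fold, and Abcg2 was lower by 1.60-fold (-0.68). These are 3.19 and -2.95 times the scatter at their levels. Abca1 differed by 0.22, and Abcg1 by 0.25 on the brighter probe set of its pair and -0.05 on the dimmer. Abcc1 and Abcc4 differed by -0.01 and -0.02, Abcb10 by -0.02 and Abca7 by -0.17, all on their brightest probe sets. Macrophage markers were higher for 4 of 8 here, with sums of 3426 in Smo-deficient MP against 3194 in WT MP. Mature erythroid markers had sums of 25573 in Smo-deficient MP against 32569 in WT MP, with 3 of the 5 past the filter lower, Tfrc (-0.59), Klf1 (-0.48) and Epb42 (-0.13), and 2 higher, Slc4a1 (0.25) and Alas2 (0.14). The part of such cells in the lower Abcg2 value was not tested. Subtracting the Smo-deficient minus WT difference of MP from the one of LSK gave 0.49 for Abca1, 0.48 for Abcg2 and -0.55 for Abcb1b, and at most 0.37 in size for the other probe sets. This difference of differences was at least 2-fold for 0.608% of all probe sets past the filter, and no test of it was possible with single arrays.

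**Figure D3:**
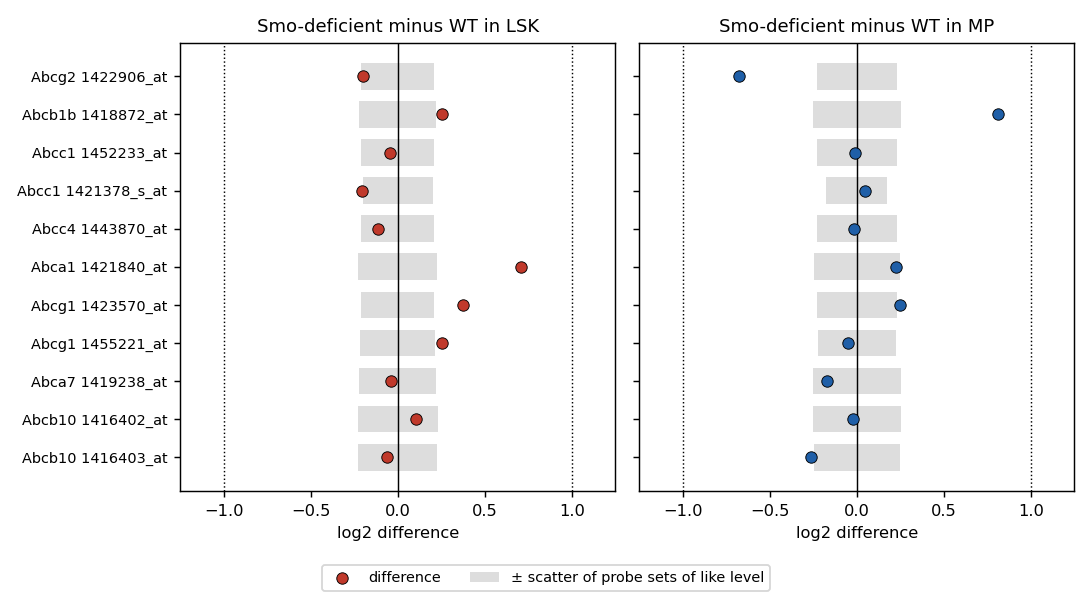
Smo-deficient minus WT, as log2 difference, in LSK (left) and MP (right) for the 11 probe sets past the filter. Grey bars span 1 time the scatter of genotype differences among probe sets of like level to either side of 0, and dotted lines mark 2-fold. Abca1 lies furthest outside the grey in LSK at 0.71, and Abcb1b at 0.81 and Abcg2 at -0.68 do so in MP.

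The other ABC genes on the array leaned to MP. Of 39 such genes 22 were past the filter, of which 2 rose in LSK, 7 fell and 13 did not pass, and their median LSK minus MP was -0.15. The 8 transporters described here had a median of 0.33, and all genes past the filter one of 0.00, of which 1951 rose and 898 fell among 11904. These medians describe lists and were not tested against each other. Abcb4, which flips phosphatidylcholine in the bile canaliculus, had log2 intensities of 10.39 in Smo-deficient LSK, 11.47 in WT LSK, 12.32 in Smo-deficient MP and 13.01 in WT MP. All 4 arrays were well apart, MP above LSK and WT above Smo-deficient. It fell in LSK by 1.74 ± 0.12 on the log2 scale (limma adjusted p 0.000335), or 3.33-fold, and was 2.11-fold lower in Smo-deficient LSK than in WT LSK. It follows Abcb1a and Abcb1b on chromosome 5 with no other protein-coding gene in between, and its pattern was the opposite of that of Abcb1b.

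Abcb6, a porphyrin transporter, and Abca3, the surfactant lipid transporter of the lung, also fell in LSK. Abcb6 had 9.27 in Smo-deficient LSK, 9.39 in WT LSK, 9.99 in Smo-deficient MP and 10.82 in WT MP, a difference of -1.07 ± 0.18 (limma adjusted p 0.00768). Abca3 differed by -0.91 ± 0.15 (adjusted p 0.00752, limma). In both genes WT MP was the highest of the 4, and Smo-deficient MP was lower than WT MP by 1.78-fold for Abcb6 and 1.68-fold for Abca3. Abca9 and Abcd2, a peroxisomal fatty acid transporter, fell by 0.84 and 0.51. Their genotype differences were positive in both populations, 0.78 in LSK and 0.75 in MP for Abca9 and 0.44 and 0.55 for Abcd2, but both were below the filter level in WT LSK, at 6.56 and 7.03. The other Abca9 probe set, dim throughout, had genotype differences of -0.21 (LSK) and 0.16 (MP), and the mean over both gave 0.28 and 0.46. The other Abcd2 probe sets ranged from -0.04 to 0.84 in LSK and from -0.14 to 0.85 in MP. Of these, 1438431_at was also past the filter and fell in LSK by 1.13 (limma adjusted p 0.00109). Those below the filter, not tested, had LSK minus MP differences of -0.59 and 0.07. Abca13 was higher in Smo-deficient LSK by 0.71 and differed by -0.02 in MP. The 2 that rose, named after their values were seen, were the antigen peptide transporter subunits Tap1 (0.54) and Tap2 (0.48). Abcg4, a sterol transporter close to Abcg1, also chosen after its values were seen, had probe sets that disagreed, one at -1.48 (adjusted p 0.00525, limma) and the brighter at -0.15 (adjusted p 0.373).

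**Figure D4:**
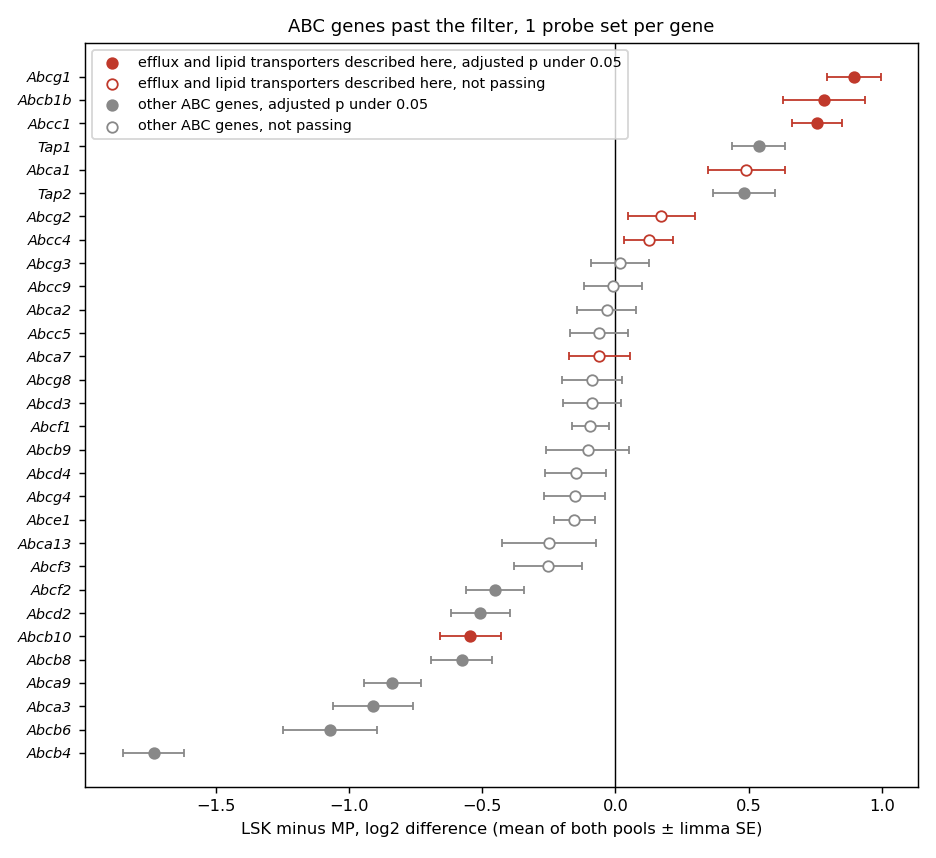
LSK minus MP, as log2 difference with the limma standard error over both pools, for the 30 ABC genes past the filter, each on its brightest probe set. Red is the transporters described here and grey the other ABC genes, and filled points passed at an adjusted p under 0.05. Abcg1, Abcb1b and Abcc1 stand at the top and Abcb4, at -1.74, at the bottom.

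Genes that work with these transporters were read from lists named for their pathway. Over all genes past the filter 16.4% rose in LSK and 7.54% fell. Of 11 sterol and LXR genes past the filter, 2 rose in LSK (18.2%, near that background) and 0 fell, with a median of 0.08. Mylip, an LXR target that degrades the LDL receptor, had log2 intensities of 10.77 in Smo-deficient LSK, 10.35 in WT LSK, 9.92 in Smo-deficient MP and 9.69 in WT MP. That is the order of Abcg1 on 1423570_at, though not on its dimmer probe set, and Mylip rose by 0.76 ± 0.12 (limma adjusted p 0.00574). Npc1 and Lpl had the same order, Lpl with an LSK minus MP of 0.19 that did not pass. The list as a whole did not share this order. Srebf1 was lower in the Smo-deficient pool, with genotype differences of -0.29 (LSK) and -0.31 (MP). For Apoe they were -0.38 (LSK) and 0.13 (MP). LSK minus MP was 0.09 for Srebf1 and -0.10 for Apoe, and neither passed. Of the 11 genes, 6 were higher and 5 lower in Smo-deficient LSK than in WT LSK. Npc1, which releases cholesterol from lysosomes, rose by 0.59. The receptor genes themselves were named for their role, after their values were seen. The LXR gene Nr1h3 was below the filter at 6.80 to 7.09. The other LXR gene, Nr1h2, was not among the 14 measured of the 17 genes listed, so its level is not known. Of the partner genes, Rxra differed by -0.00 and Rxrb, at a mean log2 intensity of 11.77, by 0.08, and neither passed.

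Of 15 xenobiotic and glutathione genes, 2 rose (13.3%) and 5 fell (33.3%). The aryl hydrocarbon receptor gene Ahr rose in LSK by 1.0 ± 0.11 (limma adjusted p 0.00171), while the glutathione synthesis gene Gclm (-0.76), the quinone reductase gene Nqo1 (-0.75) and the glutathione reductase gene Gsr (-0.68) fell. Those that fell include a gene that makes (Gclm) and a gene that recycles (Gsr) glutathione, which Abcc1 uses, while Abcc1 itself rose. The other glutathione synthesis genes listed, Gclc (-0.27) and Gss (-0.15), did not pass. Between genotypes, the glutathione transferase genes Mgst1 and Gstm1 were higher in the Smo-deficient pool by 1.23 and 0.68 in LSK and by 0.81 and 0.88 in MP. Neutrophil markers moved with them, with sums in MP of 102441 in the Smo-deficient pool against 89948 in the WT pool (LSK sums are above), and their part was not tested.

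Of 13 heme and iron genes, 7 fell in LSK (53.8%), as Abcb10 did, and 1 rose (7.69%), with a median of -0.38, and the largest falls were in the heme synthesis genes Alas1 (-0.96) and Cpox (-0.89) and the porphyrin carrier gene Tmem14c (-0.74). The mitoferrin gene Slc25a37, whose product ABCB10 binds, differed by 0.07 without passing. In the leukotriene, prostaglandin and cAMP list, which holds makers and breakers of what ABCC1 and ABCC4 export, 5 of 10 rose in LSK (50%) and 1 fell (10%). The cAMP phosphodiesterase gene Pde4b rose by 1.70, the prostaglandin synthase gene Ptgs2 by 1.24 and the adenylate cyclase gene Adcy9 by 0.89. Of 8 flippase and scramblase genes, 3 rose (37.5%) and 1 fell (12.5%). Gulp1, an engulfment adaptor, differed most, at 9.33 in Smo-deficient LSK, 9.29 in WT LSK, 6.63 in Smo-deficient MP and 6.11 in WT MP, where the MP values are below the filter level, so the size of 2.93 depends on background.

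The genes nearest in pattern were found for 3 members by the distance between log2 intensities centred on their mean over the 4 arrays. For Abcg1 they were Rabep2 (0.03), Ttc28 (0.05) and Neurl1b (0.07), for Abcb1b they were B4galt5 (0.06), Cd69 (0.14) and Csf3r (0.14), and for Abcb10 they were Erp29 (0.06), Mfsd14b (0.07) and Tm7sf2 (0.07). Only 4 arrays enter each distance, and 137, 17 and 84 genes lay within 0.2 of Abcg1, Abcb1b and Abcb10.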

How the data were processed

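The deposited intensity values of 4 Affymetrix mouse arrays came in 1 table. The submitters' processing notes name RMA, a method that corrects background, quantile normalizes and summarizes probe sets, and its version was not given in the sources used. Per the labels' protocols, 20 ng of total RNA went through 2 cycles of amplification. RMA gives log2 values, but these spanned 12.3 to 44290.5. They were taken to be linear, from the values alone, and log2 was computed with no pseudocount. Medians were close, but upper quartiles ran from 543.1 to 609.7. Whether the 4 arrays were quantile normalized together is thus not known, nor is any later centring by the authors. Quantile normalization can remove a shift common to most genes. Scanner files were not used here.

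Control probe sets (64 of 45101) were left out. The platform annotation gave 34945 probe sets 1 gene, 932 several and 9160 none; genes were named only from the first kind and represented by the brightest probe set by mean. The filter kept means above the 50th percentile, 22518 probe sets. LSK minus MP was fitted in limma 3.58.1 (R 4.3.3; lmFit, eBayes with trend, two-sided) with the pool as a block, 2 pairs and 1 residual degree of freedom before moderation. In simulated data on these 22518 probe sets, 200 of them changed, it recovered 100% of log2 changes of 1 and 100% of those of 2, with 6 false calls among 206. The simulated noise was of equal size for all probe sets of a mean-level bin. Changes below 1, as in all 11 member probe sets, were not simulated. The simulation thus does not say how well differences of their size are recovered. Scatter used 20 bins of mean level. Members, lists and tests were chosen with earlier results of these data known. From each list, the 4 genes past the filter with the largest size in a comparison could be named, and likeness gave 3 genes a member. Alternatives were quantile normalization, cyclic loess, no filter, a pseudocount of 32, the mean over a gene's probe sets, no pool block, no trend and 1.5-fold. Only 4 arrays limit the precision.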

Additional observations from a re-analysis of the deposited data

Results flagged for a closer look

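The dimmer Abcb1a probe set, 1419758_at, differed between genotypes in opposite directions in the 2 populations, by 0.17 in LSK and -0.19 in MP, each beyond the scatter of probe sets of like level, which makes a difference of 0.37. With 1 array per group that difference was not tested, and the probe set was far below the filter on all 4 arrays, at 4.32 to 4.88.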

How the results depend on the processing

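The pool block decided the number of calls more than any other setting. Of 11 member probe sets, 3 rose in LSK and 0 fell without it, against 5 and 1 with it. The calls of Abcb1b (adjusted p 0.173, limma; 0.0123 to 0.173 over its alternatives), of the brighter Abcg1 probe set (0.0556; 0.000706 to 0.0556) and of Abcb10 (0.0805; 0.00657 to 0.0805) were lost, and those of both Abcc1 probe sets and the dimmer Abcg1 one were kept. Among other ABC genes Abcb4 (0.0674), Abcb6 (0.0908), Abca3 (0.111), Abca9 (0.207) and Abcd2 (0.255) lost theirs. After cyclic loess 6 member probe sets rose and 1 fell, Abca1 being added. Quantile normalization, no filter, the pseudocount and no trend left 5 and 1. No passing LSK minus MP difference of the member probe sets or of Abcb4, Abcb6, Abca3, Abca9 and Abcd2 changed direction under the alternatives, and genes of the other lists were not run singly.

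Over all probe sets, 1058 passed without the block (918 higher, 140 lower) against 5013 with it (3395 and 1618). After quantile normalization 2570 were lower, and the share higher among those passing was 53.7%, against 67.7%. Taken as the mean over a gene's probe sets, which counts genes and tests fewer features, 2374 of 9096 passed (1519 higher, 855 lower), and 59 in LSK, 27 in MP and 20 by the difference of differences were 2-fold. Without a filter, 281 probe sets were 2-fold in LSK and 251 by the difference of differences, against 185 and 137. At 1.5-fold there were 888 in LSK, and 1123 in MP against 144. Averaging over all probe sets of a gene brought the genotype differences of Abca1 to 0.17 in LSK, Abcb1b to 0.42 in MP, Abca9 to 0.28 in LSK and 0.46 in MP, Abca13 to 0.48 in LSK and Abcd2 to 0.36 in MP. The added probe sets were dim, except that Abcd2 also took in 1438431_at, which was past the filter. LSK and MP were paired by pool in the test itself. Between the genotypes and by replicate number, no paired analysis was possible because each genotype is 1 pool and the groups share only replicate number 1. Probe sets below the filter limit what can be said of Abcb1a.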

Other observations

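Marker genes of further cell types described the sorted cells around the transporters. Platelet and megakaryocyte markers, whose cells are known for ABCC4, were higher in LSK than MP for 7 of 9 genes past the filter (limma, adjusted p under 0.05), with a median of 0.85. That is 77.8%, where 16.4% of all genes past the filter rose. In Smo-deficient LSK these markers were lower than in WT LSK for 9 of 9, with a median of -0.67 and 3 genes at least 2-fold lower. Of all 11904 genes past the filter 6327 were lower there and 31 at least 2-fold lower. The summed intensities of the markers were 19986 against 32308. Abcc4 differed by -0.11, and the part of such cells in its level was not tested. Of 6 markers of mast cells and basophils 5 fell in LSK (83.3%, against 7.54% of all genes), with a median of -0.92. Their sums were 6330 in Smo-deficient LSK against 4930 in WT LSK, and 11333 in Smo-deficient MP against 8581 in WT MP. T and NK cell, dendritic cell, and stroma and endothelium markers had 5, 3 and 4 genes past the filter, of which 1 dendritic cell marker passed in LSK minus MP, as lower.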
